A study of Mus musculus with 96 samples.

Results

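Aqp3, Aqp4, Aqp5, Lypd2, Tmprss11d and Tmprss11a, 3 water channels and 3 genes of the airway cell surface, were followed in the daughter cells of cultured horizontal basal cells (HBCs). They were picked by symbol from the deposited count table, which lists 55487 genes, and all 6 were found. The choice was made with levels in these same cells already known, so levels, likeness between sisters and correlations are given as descriptions without a test. In short, Aqp3 and Aqp5 were detected in all 96 cells, Aqp4 and Lypd2 were high in most cells and near 0 in the rest, and the proteases Tmprss11d and Tmprss11a were high in some cells only. A larger share of the variance of each gene lay between pairs of sisters than it did for most genes, although sisters themselves often differed.

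HBCs are the reserve stem cells of the olfactory epithelium (OE). The 96 cells were the daughters of 48 divisions of primary HBCs grown ex vivo from wild-type mice aged 6-8 weeks, whose OE had been injured by methimazole 2 days before dissection. The study asked how the daughters of a division differ, and both were picked by mouth pipette with their pairing noted, lysed with ERCC spike-in RNA and processed by G&T-seq, which reads polyadenylated RNA of single cells. All cells thus shared genotype, injury and culture protocol. The labels give neither the mouse nor the culture of any cell, so the cells are 1 sample of 1 condition without independent replicates. Cells are named by pair and daughter, so that 4-2 is the second daughter of pair 4.

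Aquaporins are membrane channels that let water follow osmotic gradients, and Aqp3 also carries glycerol. In airway epithelia Aqp3 and Aqp4 are known from the basolateral membrane, Aqp3 above all from basal cells, and Aqp5 from the apical membrane of gland and surface cells. Lypd2 encodes a small protein of the Ly6/uPAR family, which is held on the cell surface by a lipid anchor. Tmprss11d (human airway trypsin-like protease, HAT) and Tmprss11a are serine proteases anchored in the plasma membrane of airway and squamous epithelia, and enzymes of their family can cleave matrix proteins and viral surface proteins.

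In GRCm38, Aqp3 (ENSMUSG00000028435) lay at chr4:41092722-41098183 and Aqp5 (ENSMUSG00000044217) at chr15:99590782-99594829. Lypd2 (ENSMUSG00000022595) lay on the same chromosome as Aqp5, at chr15:74732247-74734329. Tmprss11d (ENSMUSG00000061259) at chr5:86302217-86373420 and Tmprss11a (ENSMUSG00000072845) at chr5:86410410-86468990 were neighbours in a cluster of 7 listed Tmprss11 genes on the minus strand. No other annotated gene overlapped these 5. In GENCODE M21 transcripts, 0.692% of the 50-base words of Tmprss11d and 0.169% of those of Aqp3 also occurred in another gene, and none of those of the other 4 did.

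The bases just before the start of transcription are shown for the water channel that was high in every cell and for the 2 neighbouring proteases that were not, in RefSeq sequence of GRCm38.p6 on the strand of the gene. Matches to the letters of the TATA box (TATAAA), of the GC box that Sp1 binds (GGGCGG) and of the CCAAT box are in capitals where they lie wholly within the printed stretch, with both strands searched.
Aqp3, chr4:41098184-41098433, minus strand: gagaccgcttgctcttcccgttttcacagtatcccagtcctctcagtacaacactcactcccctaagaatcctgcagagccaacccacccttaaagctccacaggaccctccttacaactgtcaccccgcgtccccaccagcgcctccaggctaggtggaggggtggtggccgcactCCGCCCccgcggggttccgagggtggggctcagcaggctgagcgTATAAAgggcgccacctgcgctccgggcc
Tmprss11d, chr5:86373421-86373637, minus strand: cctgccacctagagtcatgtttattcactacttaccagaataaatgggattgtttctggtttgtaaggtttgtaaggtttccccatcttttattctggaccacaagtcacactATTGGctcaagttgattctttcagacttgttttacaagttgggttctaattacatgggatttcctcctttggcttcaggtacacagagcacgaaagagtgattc
Tmprss11a, chr5:86468991-86469240, minus strand: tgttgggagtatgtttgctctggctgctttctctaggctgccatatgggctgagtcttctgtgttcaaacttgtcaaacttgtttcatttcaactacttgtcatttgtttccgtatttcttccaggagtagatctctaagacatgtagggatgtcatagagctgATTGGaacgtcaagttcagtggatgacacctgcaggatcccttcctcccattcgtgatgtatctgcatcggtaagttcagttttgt
The Aqp3 stretch held TATAAA 29 bases before the start, a match found in 12.4% of 32851 promoters over their 250 bases, and GGGCGG on the opposite strand, found in 32.7%. Both proteases held CCAAT on the opposite strand, as did 33.8% of promoters on either strand. The letters TGANTCA of the AP-1 site were searched too, and a match, present in 6.75% of promoters, lay 39 bases before the RefSeq start of Tmprss11d and across the start of the gene as the count files annotate it, so it is not printed in full. The 250 bases held 14 CpG dinucleotides in Aqp3, 38 in Aqp5, 1 in Tmprss11d and 4 in Tmprss11a, where the median promoter held 6. The window of Aqp5 is not shown, because 246 of its 250 bases lay inside the gene as the files annotate it, and those of Aqp4 and Lypd2 were not used here.

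Between 29454150 and 44849003 counts per cell fell on genes, with a median of 36152760, and ERCC transcripts took 1.06% to 5.75% of counts. Levels below are counts divided by a size factor from 22 ERCC transcripts, which ranged from 0.378 to 1.89. The HBC markers Krt5 and Krt14 reached 100 counts in all 96 cells and Trp63, the HBC transcription factor, in 95. Cell 4-2 stood apart: it had the lowest Krt5 count of all cells, 6760 against a median of 106400 in the cells of other pairs, and the lowest Krt14 count, 691 against 137045.5. It also held 259709 counts of Cyp2a5 and 174005 of Ugt2a1, odorant-metabolising enzymes known from sustentacular cells, whose highest counts in the other pairs were 546 and 5495. Its sister 4-1 had the highest count of Cnfn, a cornified envelope gene, with 423062. Levels, presence, sister folds, intraclass correlations and the correlations between the 6 genes were therefore also computed without pair 4. The median level was then 60681 for Aqp3, 1828 for Aqp4, 31971 for Aqp5, 3472 for Lypd2, 110 for Tmprss11d and 4.22 for Tmprss11a.

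Per length of transcript, in the deposited TPM, the order of the medians was Aqp3 at 1580, Aqp5 at 1007, Lypd2 at 315, Aqp4 at 26.6, Tmprss11d at 2.19 and Tmprss11a at 0.0653 TPM. Aqp3 thus ranked 85 and Aqp5 138 among all genes by median TPM. Neighbours in this order overlapped from cell to cell: Aqp3 exceeded Aqp5 in 67 of 96 cells (69.8%), and Aqp4 exceeded Tmprss11d in 62. Lypd2 exceeded Aqp4 in 90 cells, the clearest step of the order.

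Aqp3 had counts from 13747 to 258587 with a median of 59030.5, and its normalised level ran from 15250 to 287912 with a median of 60681. Aqp5 had counts from 317 to 326492 with a median of 38003.5, and normalised levels of 199, 32780 and 231424 at the lowest, the median and the highest cell. Both channels were thus counted at 100 or more in all 96 cells, and the spread was the narrower for Aqp3 (SD 0.99 on the log2 scale) than for Aqp5 (SD 1.67). Aqp4 (ENSMUSG00000024411, chr18:15389496-15410982) was overlapped on the opposite strand by Gm50048, which reached 10 counts in 6 cells, and as no source used here says that strand was recorded, their reads cannot be told apart there. Aqp4 had counts from 4 to 59070 with a median of 2013.5, and normalised levels of 7.40, 1899 and 40030 (SD 3.48 on the log2 scale). Aqp4 fell into 2 ranges: 26 cells had 72 counts or fewer and the other 70 had 193 or more. At 100 counts Aqp4 was therefore present in 72.9% of cells (95% Clopper-Pearson interval 62.9-81.5, counting error only), and 59 cells had 1000 counts or more.

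Lypd2 had counts from 9 to 139065 with a median of 3717.5, and normalised levels of 16.65, 3568 and 94240 (SD 3.09 on the log2 scale). Its cells were also parted by a gap, with 83 counts or fewer in 16 cells and 257 or more in the other 80 (83.3%, interval 74.4-90.2). Tmprss11d had counts from 0 to 32558 with a median of 125, and normalised levels of 0, 110 and 21838 (SD 4.38 on the log2 scale). It was at 0 in 10 cells and at 100 counts or more in 49 (51%, interval 40.6-61.4). Tmprss11a had counts from 0 to 6160 with a median of 4, and normalised levels of 0, 3.95 and 5462 (SD 4.13 on the log2 scale). It was at 0 in 40 cells and at 100 counts or more in 30 (31.2%, interval 22.2-41.5). Unlike Aqp4 and Lypd2, Tmprss11d thus had no gap at 100 counts, where 97 and 102 were neighbouring values, and for Tmprss11a these were 82 and 167.

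Low counts need care, because for Aqp4, Lypd2 and Tmprss11d they were about the same small share of a gene's count over all cells. In cells under 100 counts the median was 23 counts for Aqp4, 32 for Lypd2 and 11 for Tmprss11d. These were 0.00497%, 0.00423% and 0.00478% of the gene's count summed over the 96 cells. For Tmprss11a, with 36043 counts in sum, the median over its 66 cells under 100 counts was 0. Over 2116 genes with at least 100000 counts in sum and at least 10 cells below 100 counts, the median share was 0.00579% and the quartiles were 0.00442% and 0.00787%. Where these low counts came from was not tested. A minimum of 100 counts, chosen after the values were seen, is therefore used for presence of the members, beside the 10 counts planned, at which Aqp4 was present in 93 cells, Lypd2 in 95, Tmprss11d in 74 and Tmprss11a in 39.

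**Figure D1:**
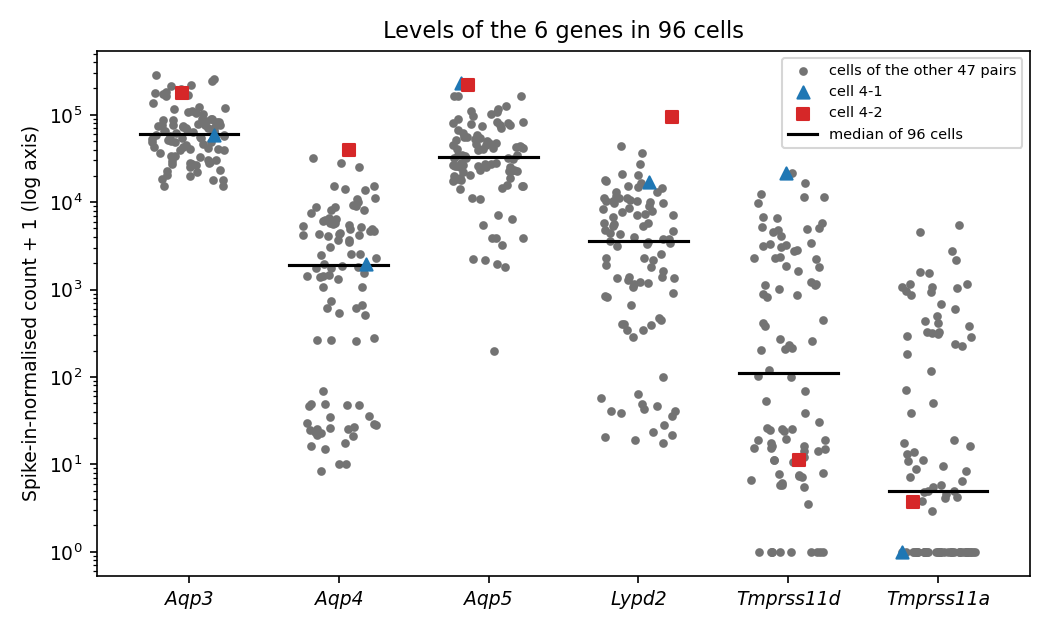
Spike-in-normalised count plus 1 (log axis) of each gene in each of the 96 cells, with a line at the median; cells 4-1 and 4-2 are marked. Aqp3 stayed at 15250 or above, Aqp4 and Lypd2 fell into a low and a high range, and 4-2 was the highest cell for Aqp4 and Lypd2.

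Cell 4-2 held the highest raw count of Aqp3, Aqp4, Aqp5 and Lypd2. The same cell had 15 counts of Tmprss11d and 4 of Tmprss11a. By normalised level it led Aqp4 and Lypd2 only, while 43-2 led Aqp3 and 4-1 led Aqp5. The Aqp4 count of 4-2, 59070, compared with 24160 in the highest cell of the other pairs, and its Lypd2 count of 139065 with 40256. Its sister 4-1 had 234710 counts of Aqp5, 17155 of Lypd2 and 22110 of Tmprss11d, but 1980 of Aqp4, close to the median of the other cells (2006.5). The highest cells thus differed from gene to gene among the proteases, where 29-2 led Tmprss11d and 3-2 led Tmprss11a.

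Whether a gene was present was compared between sisters. At 100 counts Aqp4 was present in both sisters of 31 pairs, in neither of 9 and in 1 sister of 8 pairs. Lypd2 was present in both sisters of 35 pairs, in neither of 3 and in 1 sister of 10. Tmprss11d was present in both sisters of 19 pairs, in neither of 18 and in 1 sister of 11, and Tmprss11a in both of 11, neither of 29 and 1 sister of 8. Sisters thus matched in 77.1% (Tmprss11d) to 83.3% (Aqp4 and Tmprss11a) of pairs for these 4 genes. Over the 4895 genes present in 30 to 80 cells, the range of these 4, the median match was 60.4% of pairs and the quartiles were 54.2% and 66.7%, and a match is more frequent the closer a gene is to all or no cells. The number of the 6 genes present was equal in the sisters of 20 pairs, differed by 1 in 25 and by 2 in 3. Single cells held 2 to 6 of the genes: 12 cells held all 6, 42 held 5, 20 held 4, 15 held 3 and 7 held Aqp3 and Aqp5 only.

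The intraclass correlation, the share of the variance in log2(normalised count + 1) that lies between pairs, was 0.74 for Aqp4, 0.65 for Lypd2, 0.64 for Tmprss11a, 0.63 for Aqp5, 0.61 for Aqp3 and 0.58 for Tmprss11d. All 6 were at 0.5 or above, where 6.90% of the 14463 genes with enough counts were, and the median gene had 0.159. By this measure Aqp4 lay at the 99.8th percentile and Tmprss11d, the lowest of the 6, at the 96.9th. Without pair 4 the values ran from 0.60 for Aqp5 to 0.75 for Aqp4, and Tmprss11d had 0.64. The cells were deposited in 12 sets of 8 cells, 4 pairs each, and what the sets stand for is not given. With values centred on sets the intraclass correlation ran from 0.47 for Tmprss11d, below 0.5, to 0.73 for Aqp4. Differences between sets held 5.91% (Aqp4) to 26.3% (Tmprss11a) of the sum of squares. Differences between pairs of 1 set held 55.5% to 80.9%, and those between sisters 13.2% to 21.2%. These shares were not corrected for the number of sets and pairs, so unrelated cells would also give some share to each. Among the 6 genes Aqp4 had the smallest share of its own sum of squares between sets and the largest between pairs of 1 set. The median level of a set ran from 591 to 5223 for Aqp4 and from 31010 to 82784 for Aqp3. Tmprss11a reached 100 counts in 9 of the 12 sets, and the other 5 genes did so in all 12.

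**Figure D2:**
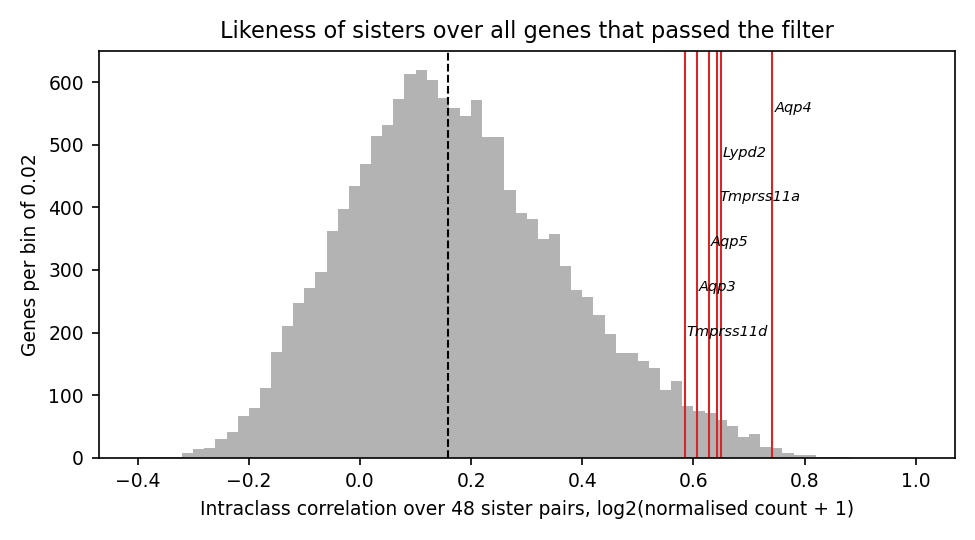
Number of genes per bin of the intraclass correlation over 48 sister pairs, for the 14463 genes with enough counts. Red lines mark the 6 genes, which lie between 0.58 and 0.74, and the dashed line marks the median gene at 0.159.

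A difference of at least 1.5-fold between sisters, the cutoff of the study, was found for Aqp3 in 18 of 48 pairs (37.5%, interval 24.0-52.6), for Aqp5 in 28 (58.3%) and for Lypd2 in 31 (64.6%). It was found for Aqp4 in 34 pairs (70.8%) and for each protease in 35 (72.9%). Such differences were common among all genes: the median gene passed the cutoff in 33 pairs, and 79.5% of genes passed it in 24 pairs or more, as did 5 of the 6 here. By this measure Aqp4 and the proteases were no more alike in sisters than the median gene. Without pair 4 the numbers were 17 of 47 pairs for Aqp3, 33 for Aqp4, 28 for Aqp5, 30 for Lypd2 and 34 for each protease. The 22 ERCC transcripts, which should not differ, passed it in 0 to 34 pairs with a median of 10.5. The same 22 transcripts set the size factors, so their folds are not an independent measure of noise. The median fold between sisters was 1.44 for Aqp3, 1.63 for Aqp5, 1.93 for Lypd2, 2.18 for Aqp4, 3.19 for Tmprss11d and 4.24 for Tmprss11a. Many of the large folds joined a high sister with one in the low range. Of the pairs past the cutoff, at least 1 sister had 100 counts in 29 for Aqp4, 22 for Tmprss11d and 16 for Tmprss11a. In the rest of those pairs both sisters were under 100 counts, where low counts need care. In pairs with 100 counts in both sisters the median fold was 1.78 for Aqp4, 1.59 for Lypd2, 1.69 for Tmprss11d and 2.73 for Tmprss11a.

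A few divisions gave sisters that were far apart. In pair 22 Lypd2 had 31950 counts in 1 sister and 27 in the other, and Aqp3 had 19792 and 136900 in the same 2 cells, so Lypd2 was high where Aqp3 was the lower. These were the largest differences of either gene, 1040-fold for Lypd2 and 7.86-fold for Aqp3 after normalisation. In pair 21 Aqp4 had 9 and 5537 counts (507-fold). In pair 47 Aqp5 had 62659 and 4637 counts (25.7-fold), and Aqp3 was lower in the same sister, with 75121 and 34951 (4.08-fold). In pair 4 Tmprss11d had 22110 and 15 counts (2140-fold), against Aqp4 and Lypd2, which were higher in the other sister. In pair 12 Tmprss11d had 1754 counts in 1 sister and 0 in the other, at least 707-fold higher if 3 counts are taken as the floor. In pair 3 Tmprss11a had 4 and 6160 counts (1930-fold). No pair held a 10-fold difference of Aqp3, whereas 8 pairs did for Aqp4, 3 for Aqp5 and 6 for Lypd2.

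**Figure D3:**
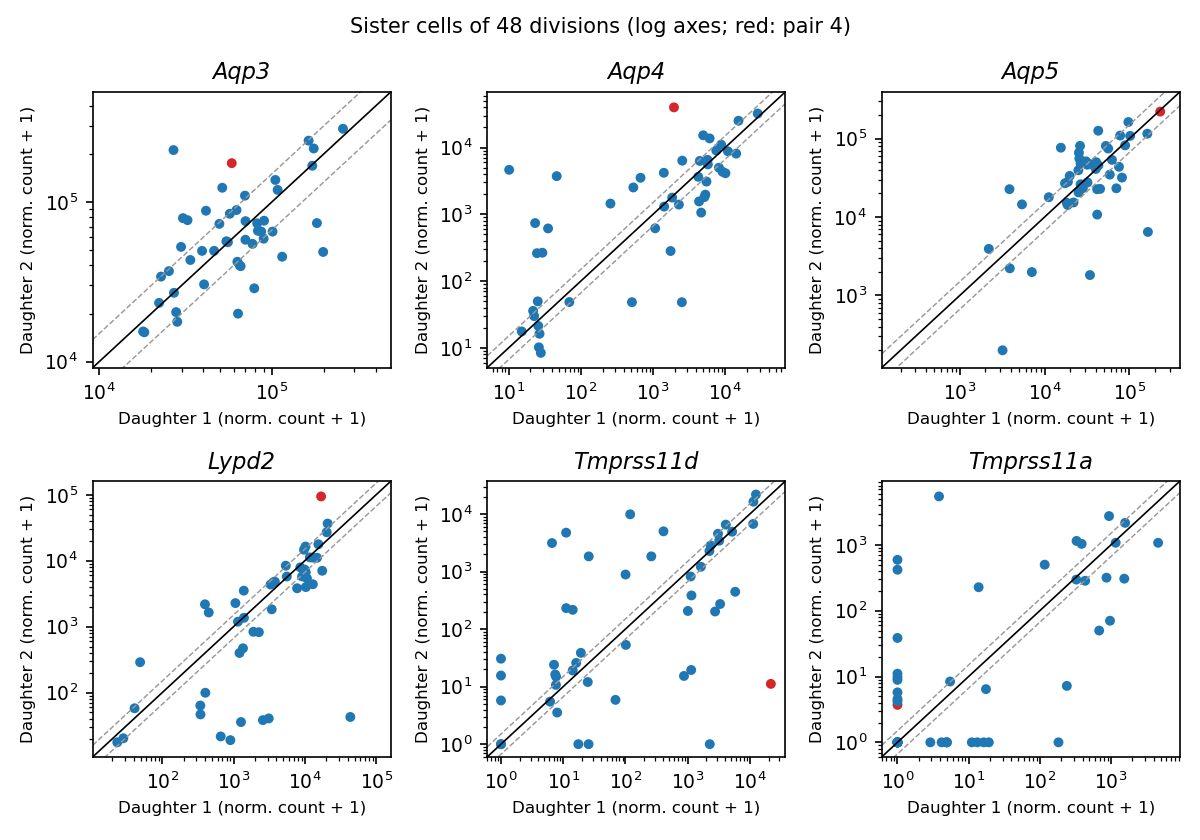
Normalised count plus 1 of daughter 2 against daughter 1 (log axes) for each of the 48 pairs, with the line of equality and dashed lines at 1.5-fold; pair 4 is red. Aqp4 and Lypd2 show pairs low in both sisters, pairs high in both and a few in between, and the proteases show sisters at 0 along the axes.

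The 3 channels and Lypd2 varied together over the 96 cells, and the proteases only weakly so. The ranks of the proteases rest in part on ties and low counts. Tmprss11a was under 100 counts in 66 cells, with 40 of them at 0, and Tmprss11d in 47. What this did to their correlations was not tested. Spearman's rho was 0.59 between Aqp5 and Lypd2, 0.50 between Aqp4 and Lypd2, 0.48 between Aqp3 and Aqp5, 0.43 between Aqp3 and Aqp4, 0.41 between Aqp4 and Aqp5 and 0.37 between Aqp3 and Lypd2. Values centred on the mean of each set gave 0.62, 0.48, 0.50, 0.51, 0.41 and 0.43 in the same order, and leaving out pair 4 gave 0.57, 0.49, 0.48, 0.41, 0.40 and 0.36. Tmprss11d reached 0.24 with Aqp4 and 0.06 with Aqp5, and Tmprss11a reached 0.23 with Aqp5. The neighbours Tmprss11d and Tmprss11a had a rho of 0.17 with each other, and both were present in 17 cells, Tmprss11d alone in 32, Tmprss11a alone in 13 and neither in 34. All 15 combinations were above 0, with a median of 0.23. The points share their pair, their set and their spike-in scaling, so these values describe the 96 cells only.

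Within divisions the picture was thinner. Over the 48 differences between sisters, rho was 0.43 for Aqp3 with Aqp5, 0.35 for Aqp4 with Aqp5 and 0.33 for Aqp5 with Lypd2. It was 0.16 for Aqp4 with Lypd2 and 0.10 for Aqp3 with Aqp4, which had stood at 0.50 and 0.43 over cells. The median over the 15 combinations was 0.13, and 2 were below 0, Tmprss11d with Lypd2 at -0.16 and with Aqp4 at -0.10. The same sister was the higher for Aqp4 and Aqp5 in 31 of 48 pairs (64.6%, interval 49.5-77.8) and for Aqp3 and Aqp5 in 30 (62.5%, interval 47.4-76). The levels of both genes in a cell share a size factor, so the share for unrelated genes need not be 50%.

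Aqp3 was most like Fam129a (rho 0.72), and Gclm, which encodes a subunit of the enzyme that starts glutathione synthesis, had 0.62, where 4.03% of genes reached 0.3 with Aqp3. Between sisters Fam129a had 0.28 and Gclm 0.23 with Aqp3. With scaling to the library total they had 0.73 and 0.64 over cells.

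Aqp4 was most like Fetub (0.58), Epas1 (0.57), which encodes the hypoxia-inducible factor HIF-2 alpha, and Trib2 (0.55). Only 0.754% of genes reached 0.3 with Aqp4, while 5.16% were at -0.3 or below. Aqp5 was most like Lypd2 (0.59), Card19 (0.57) and Slc6a6 (0.55), the taurine transporter, and 2.27% of genes reached 0.3 with it.

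Lypd2 was most like Ly6c2 (0.62) and Ly6c1 (0.61), genes of its own family on chromosome 15, and Aqp5 (0.59), where 0.629% of genes reached 0.3. Ly6c1 and Ly6c2 are near-identical copies between which reads may be split, so their values are uncertain and not separate. Between sisters both had a rho of 0.29 with Lypd2. Tmprss11d had no close companion, though its ranks in 47 cells rest on counts under 100. Itm2b (0.36), Glrx (0.35) and Il1rn (0.35), the interleukin-1 receptor antagonist, came first, and 0.111% of genes reached 0.3 with Tmprss11d. Tmprss11a led with Mrpl24 (0.39), Ly6c1 (0.38) and Rfc5 (0.38), where 0.443% of genes reached 0.3. By the mean rho over the 6 genes the highest were Card19 (0.42), Cbr2 (0.40), Trib2 (0.38), Pcolce (0.37) and Itm2b (0.37). The lowest were Serpinb10 (-0.32), Fam102b (-0.32), S100a10 (-0.32), Serpinb2 (-0.29) and Abcb1b (-0.29). The annotated spans of Serpinb10 and Serpinb2 on chromosome 1 overlap, so their values may not be separate.

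**Figure D4:**
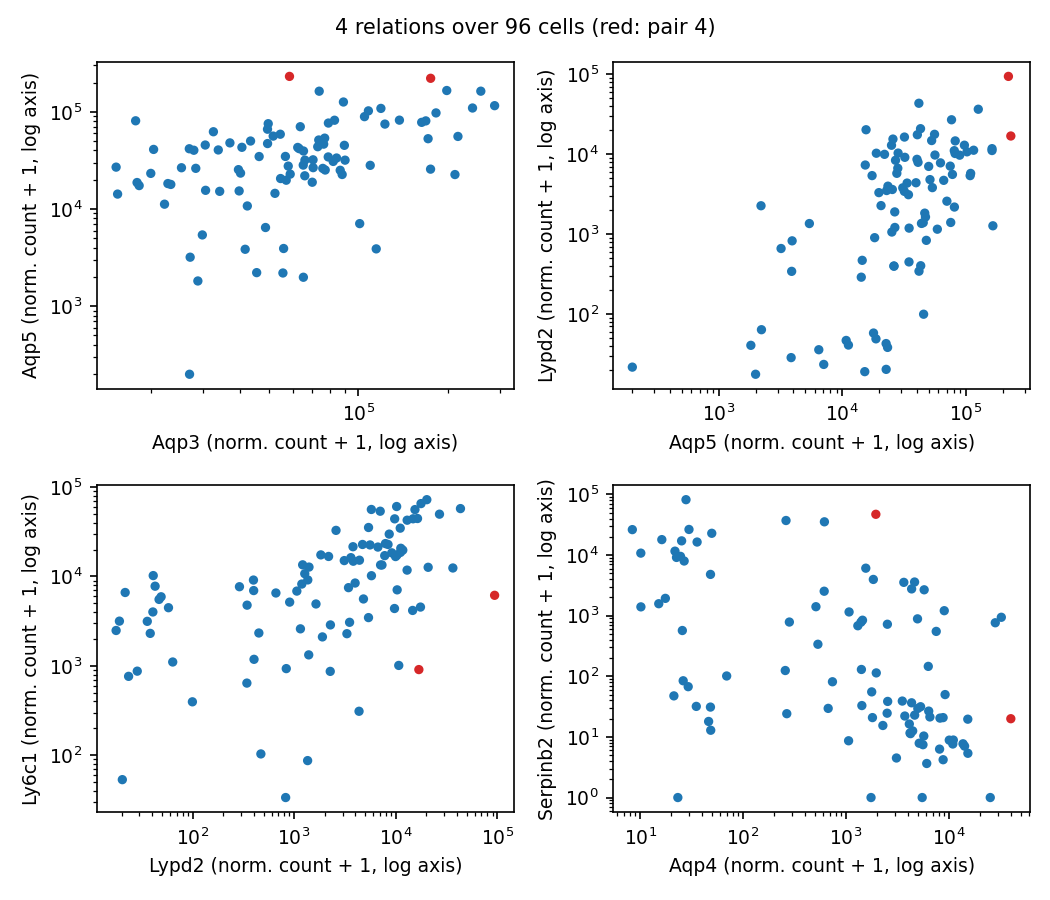
Normalised count plus 1 (log axes) of 4 pairs of genes in the 96 cells; pair 4 is red. The rank correlation was 0.48 for Aqp3 with Aqp5, 0.59 for Aqp5 with Lypd2, 0.61 for Lypd2 with Ly6c1 and -0.55 for Aqp4 with Serpinb2.

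Several enzymes that handle odorants and toxins were correlated with the channels and Lypd2. Of 11 xenobiotic enzyme genes with enough counts, 5 had a mean rho of 0.2 or above over the 6 genes, where 1.44% of all genes did, and the median of the list was 0.20 against 0.0019 over all genes. The number at 0.3 or above was 4 with Aqp3, 3 with Aqp5, 5 with Lypd2, 1 with Tmprss11d and 0 with Tmprss11a. With Aqp4, 6 of the 11 reached 0.3, where 0.754% of all genes did. These were Ces1d, a carboxylesterase (0.51), Gstm1, a glutathione transferase (0.50), Cbr2, a carbonyl reductase (0.46), Aldh3a1, an aldehyde dehydrogenase (0.43), Cyp2f2, a cytochrome P450 (0.40) and Ugt2a1, a glucuronosyltransferase (0.35). Gsta4 (-0.12) and Gsto1 (-0.13), also glutathione transferases, were below 0 with Aqp4. Cbr2 reached 0.54 with Aqp5 and 0.56 with Lypd2. These values differed little without pair 4, where Ces1d had 0.50 and Gstm1 0.55 with Aqp4. Between sisters they were lower, 0.10 for Ces1d, 0.19 for Gstm1 and 0.28 for Cbr2 with Aqp4.

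Squamous genes lay opposite to Aqp4. Of 10 with enough counts, 6 had a rho of -0.3 or below with Aqp4, where 5.16% of all genes did. They were Serpinb2 (-0.55), Cnfn (-0.44), the transglutaminase Tgm1 (-0.40) and the cornified envelope precursors Sprr1b (-0.40), Sprr2a1 (-0.38) and Sprr2a2 (-0.37), of which the last 2 are near-identical copies. The number was 2 with Lypd2, where 1.92% of all genes were as low, and 1 with Aqp3, where 0.0346% were. It was 0 with Aqp5, Tmprss11d and Tmprss11a, where 0.166%, 0.235% and 0.0553% of all genes were. By the mean rho over the 6 genes 1 squamous gene, Serpinb2, was at -0.2 or below, as were 0.691% of all genes. Of 8 HBC genes, 1 was at -0.3 or below with Aqp4, the basal keratin Krt14 (-0.38), and Ngfr was at 0.34. Of 8 other keratins 2 were, the wound keratins Krt17 (-0.42) and Krt16 (-0.41), and the median of these lists was near 0 (-0.067 and -0.071). Krt14 came to -0.23 with scaling to the library total. Within divisions these relations were smaller or of the other sign: rho between sisters was 0.22 for Sprr2a1, 0.01 for Sprr1b and -0.08 for Cnfn with Aqp4, and -0.17 for Serpinb2.

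**Figure D5:**
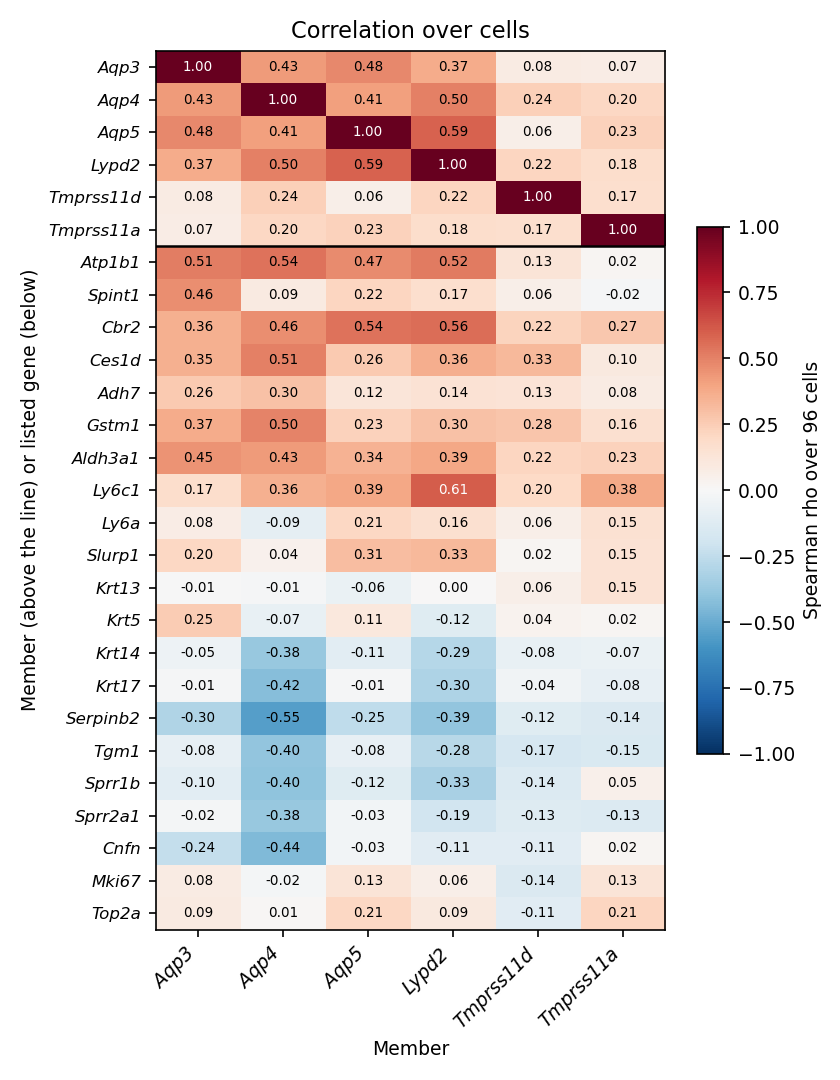
Spearman's rho over 96 cells of each of the 6 genes (columns) with each other (above the line) and with genes of the lists (below the line), from blue at -1 to red at 1. Enzymes such as Cbr2 are red with the channels and Lypd2, and squamous genes such as Serpinb2 are blue with Aqp4.

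Among genes of ion transport, 9 of 18 had enough counts, and 4 reached a rho of 0.3 with Aqp3, where 4.03% of all genes did. Atp1b1, a subunit of the sodium pump, had a rho of 0.51 with Aqp3, 0.54 with Aqp4, 0.47 with Aqp5 and 0.52 with Lypd2, and between sisters of 0.18 with Aqp3 and 0.11 with Aqp4. The potassium channel gene Kcnj10, a partner of Aqp4 in glia, was at 0 in all 96 cells, which limits cells with a count, not cells that express it, to 3.12%. Genes of the complex that anchors Aqp4, such as Dag1 and Utrn, had a median rho of 0.03 with Aqp4, and 0 of 6 reached 0.3, near the 0.754% of all genes.

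Of 9 other aquaporins 2 had enough counts: Aqp11, at 10 counts or more in 47 cells and at 100 or more in 41, and Aqp6, at 10 or more in 13 and at 100 or more in 1. Aqp6, at chr15:99601400-99605477 close to Aqp5, had a rho of 0.46 with Aqp5. It was counted in 28 cells, with a highest count of 567. Aqp1 was counted in no cell.

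Among the neighbours of the proteases on chromosome 5, Tmprss11b was more widely present than either, at 100 counts or more in 82 cells. Tmprss11b had a rho of 0.29 with Tmprss11d and 0.16 with Tmprss11a. Tmprss11e was at 100 counts or more in 28 cells and had a rho of -0.13 with Tmprss11d. Tmprss11f, Tmprss11g and Tmprss11c reached 100 counts in 8, 3 and 0 cells. Of 12 other membrane-anchored serine proteases 5 had enough counts, among them St14 (matriptase), at 100 counts or more in 93 cells, and Tmprss4, in 68. Their inhibitors Spint1 and Spint2 were present in all cells, and Spint1 had a rho of 0.46 with Aqp3, and of 0.32 between sisters.

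In the Ly6/uPAR family 10 of 20 other genes had enough counts. With Lypd2, 3 of the 10 reached 0.3, namely Ly6c1 (0.61), Lynx1 (0.35) and Slurp1 (0.33), where 0.629% of all genes did. With Aqp5 4 of the 10 did, where 2.27% of all genes did. Slurp1 (chr15:74724318-74728034) and Lynx1 (chr15:74747852-74753046) lay close to Lypd2. So did Ly6d and Psca, which had a rho of -0.056 and -0.074 with Lypd2. Ly6a, the gene of the stem cell antigen Sca-1, was present in all cells at a median count of 49055 and had a rho of 0.16 with Lypd2.

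Markers of cells that use these genes in the intact airway and nose were mostly near 0. Of 14 airway secretory genes none had enough counts, and Scgb1a1, Muc5b and Muc5ac were counted in no cell. Of 10 Bowman gland genes only Sox9 had enough counts, and Sox10, Obp1a and Obp2a were counted in no cell. Of 6 glial genes only Mbp had enough counts, with Gfap at 10 counts or more in 3 cells. Of 8 sustentacular genes 4 had enough counts (Cyp2a5, Ugt2a1, Sox2 and Cbr2), while Sec14l3 and Ermn were counted in no cell and Cyp2g1 in 1. The summed level of the 8 ran from 1535 to 411500 with a median of 18270, where Cbr2 alone had a median of 17370. Cbr2 reached 100 counts in all 96 cells, Sox2 in 83, Ugt2a1 in 20 and Cyp2a5 in 3. Of these, Cbr2 and Ugt2a1 moved with Aqp4 and Lypd2 as given above, and their part in the correlations of the members was not tested.

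The correlations with genes of the cell cycle were small. With Mki67, a gene of cycling cells, rho was 0.08 for Aqp3, -0.02 for Aqp4, 0.13 for Aqp5, 0.06 for Lypd2, -0.14 for Tmprss11d and 0.13 for Tmprss11a. Of 10 cycling genes 0 had a mean rho beyond 0.2, near the 1.44% above and 0.691% below of all genes. The highest value of a cycling gene was that of Cdk1 with Aqp5, 0.26 over cells and 0.36 between sisters. On the first principal component of the 500 most variable genes, which held 16.69% of their variance, Aqp4, Lypd2 and Tmprss11d ranked 2, 3 and 6 at the end led by Adh7, opposite to Sprr2a2, Sprr2a1 and Top2a. That end was the weak one: the loadings were -0.0471, -0.0401 and -0.0283 against 0.132 for Sprr2a2, and by size the 3 genes ranked 182, 247 and 353 of the 500. Aqp3 and Aqp5 had small loadings there of the other sign, and Tmprss11a was not among the 500 genes.

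Other measures of the cells moved with some of the genes. The mitochondrial share of counts had a rho of 0.41 with Aqp4 and 0.31 with Lypd2, and of 0.03 with Aqp3. The total of gene counts scaled by ERCC, a measure of RNA per cell, had a rho of 0.24 with Aqp3 and -0.24 with Aqp4, all scaled by the same ERCC size factor. With the genes scaled to the library total it was -0.17 for Aqp3, of the other sign, and -0.38 for Aqp4. Counts per cell were only weakly related to any of the 6, at -0.12 to 0.19. The part of these measures in the results was not tested.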

How the data were processed

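The transcriptomes of 96 single cells, the daughters of 48 divisions, were read by G&T-seq. The authors trimmed reads with Trimmomatic 0.39, aligned them with STAR 2.7.11a to GRCm38 with Ensembl annotation and ERCC sequences, and quantified them with StringTie 2.2.1. The deposited values are raw counts per gene and cell, and TPM per gene, which the authors' tool scaled for length and library size. Intervals are over cells or pairs and cover counting error only. Those over cells treat sisters as independent and are therefore too narrow.

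Counts were divided by median-of-ratios size factors over 22 ERCC transcripts without a 0, and log2 values used a pseudocount of 1. What is called above a gene with enough counts had a minimum of 10 in 10% of cells, which 14463 genes met. TPM served to order genes and as an alternative scaling. Intraclass correlations were 1-way, correlations were Spearman's, and shares have exact Clopper-Pearson 95% intervals. Principal components came from the variance-stabilised counts of DESeq2 1.42.0. Python 3.11.15, numpy 2.4.6, pandas 2.3.3, scipy 1.17.1, matplotlib 3.10.9 and R 4.3.3 were used, and the calculations were tested on simulated data. Promoter sequences of 4 of the 6 genes were matched by symbol in a RefSeq table of GRCm38.p6. Deposited names placed the cells in 12 sets of 8.

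The cells have no independent replicates, so no p-values were computed. The 6 genes and all gene lists were chosen with earlier results of these data known. Genes named are the 6, those of the lists, the 3 most correlated with each gene, and 5 at each end of the mean correlation; 1 gene that this rule names is not reported here. Krt5, Cyp2a5, Ugt2a1 and Cnfn in pair 4 were singled out after their values were seen. The alternatives tried were other scalings, cutoffs, pseudocounts, filters, centring on sets and sister differences, and, added after seeing the data, a minimum of 100 counts and leaving out pair 4 or pair 46.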

Additional observations from a re-analysis of the deposited data

How the results depend on the processing

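No paired analysis was possible because there is 1 group, so no groups could be compared within blocks, and sisters were compared within their pairs. Among the recomputed values 31 moved, and 321 changed by less than the spread between sets or cells, or by less than 1.5 times, and no value changed sign beyond that spread. With a cutoff of 2 between sisters, 11 pairs differed for Aqp3, 25 for Aqp4, 14 for Aqp5 and 23 for Lypd2. From TPM, 21 pairs differed for Tmprss11d and 18 for Tmprss11a, and a pseudocount of 10 gave 25 for Tmprss11a. A minimum of 1 count put Aqp4 and Lypd2 in 96 cells, Tmprss11d in 86 and Tmprss11a in 56. A minimum of 100 counts gave 70 for Aqp4, 80 for Lypd2 and 49 for Tmprss11d, and 1 TPM gave 70 for Aqp4 and 51 for Tmprss11d. Over all alternatives the intraclass correlation stayed between 0.47 (Tmprss11d) and 0.78 (Aqp4). Over sister differences rho was 0.33 for Aqp5 with Lypd2, and, within the wider spread of those values over sets, 0.16 for Aqp4 with Lypd2 and 0.10 for Aqp3 with Aqp4. With every gene counted in any cell as background, 3.80% had an intraclass correlation of 0.5 or above. Why these values moved was not tested.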
